A study of Mus musculus with 12 samples.

Results

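The comparison described here set HC11 cells with a knockdown (KD) of Snail1 against control HC11 cells at 0 h, before collective migration began. It used 6 of the series' 12 RNA-seq libraries, 3 knockdown and 3 control, chosen by their sample titles. The values were TPM, an abundance already divided by gene length and set to a common total in each library, and 14426 of the 57180 genes in the deposited table entered the test because they reached 1 TPM in at least 3 of the 12 libraries. HC11 is an established mouse mammary epithelial line. The control libraries carried the genotype label WT and titles beginning with scr, and the knockdown libraries the label Snail1 KD. Both groups were sorted by flow cytometry and left overnight to aggregate in RPMI medium with serum, EGF and insulin. The design text gives the role of Snail1 in collective migration as the question of the study, and the 0 h libraries show the state from which migration started. The sources used here do not give the means of knockdown, the number of constructs or whether 1 clone was used. Whether replicate libraries were grown as independent cultures is also not given there, and p-values therefore refer to the scatter among the libraries at hand, which may be technical. All 4 groups of the series entered one fit, including a 36 h control library titled mix, a word the labels leave unexplained.

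Snail1, encoded by Snai1, is a zinc-finger repressor that binds E-box sequences in the promoters of epithelial genes such as Cdh1. It is best known for driving epithelial-mesenchymal transition, in which epithelial cells loosen their junctions, remodel their matrix and become motile. In mammary epithelium it is also linked to cell cycle control and to invasion.

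The 3 knockdown libraries differed among themselves more than the libraries of the other groups. The median standard deviation of a gene within its group, on the log2(TPM + 1) scale, was 0.624 in knockdown at 0 h and 0.161 in control at 0 h, and it was 0.214 and 0.18 in control and knockdown at 36 h. Without knockdown library 2 it was 0.226. Mitochondrial genes took 13.99% and ribosomal protein genes 12.91% of the TPM of knockdown library 2, against 1.454% to 6.154% and 3.992% to 6.048% in the other 11 libraries of the series. Knockdown library 3 listed 27715 genes above 0, against 20932 to 23427 elsewhere. TPM keep no read totals, so the depth of the libraries is unknown. Epithelial markers were abundant, with Krt14 at 7052 to 7233 TPM and Epcam at 1098 to 1161 TPM in control. In knockdown Krt14 was at 7662, 2206 and 7621 TPM, so library 2 lay below and libraries 1 and 3 above control, while Epcam was at 768.92, 214.27 and 832.74 TPM, below control in each library (adjusted p = 0.0702, and 0.0012 without library 2). Of 8 epithelial markers 1 was called lower, without holding, and their median log2 difference was -0.88. Of the 7 fibroblast markers the summed level was 15.42 to 17.93 TPM in control and 4.78 to 16.01 TPM in knockdown, of the 7 immune markers 10.66 to 16.11 TPM and 6.64 to 13.16 TPM, and of the 5 endothelial markers 2.97 to 3.86 TPM and 0.49 to 4.09 TPM. The 5 adipocyte markers summed to 7.13 to 8.34 TPM in control and 7.95 to 14.11 TPM in knockdown. Nearly all of this was Fabp4, at 8.3, 7.13 and 7.24 TPM in control and 12.74, 7.85 and 13.84 TPM in knockdown. Cdh5 and Adipoq were listed at 0 in all 6 libraries.

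At an adjusted p under 0.05 in limma, 2103 genes were lower in knockdown (14.6% of those tested) and 447 were higher (3.1%). The median log2 difference over all tested genes was -0.41, so the libraries were not centred on one another. After median-of-ratios scaling, which moved that median to 0.03, 1457 genes were lower (10.1%) and 1259 higher (8.73%). Without knockdown library 2 the median was -0.16, with 2377 lower (16.5%) and 973 higher (6.74%). In the same direction in all 3 of these fits, 1318 genes were lower (9.14%) and 375 higher (2.6%); below, a call that met this is said to hold. The groups did not overlap for 4430 genes with knockdown as the lower group (30.7%) and for 1045 with knockdown as the higher group (7.24%), and 2540 of the 2550 called genes were among these. The limma fit lent all 4 groups one estimate of the spread. With a separate variance weight for each group, 341 genes were lower (2.36%) and 24 higher (0.166%). A fit to the 6 libraries at 0 h alone called 9 lower and 7 higher, while 3253 genes had an unadjusted p under 0.05. Without control library 1, 2 or 3 the main fit called 634, 834 and 783 genes lower and 113, 174 and 149 higher, and without knockdown library 3 it called 5014 lower and 839 higher. Lower calls outnumbered higher ones in each of these fits, by the narrowest ratio in the fit to the 6 libraries and after median-of-ratios scaling. Counts for gene lists below are calls of the main fit, to be read against the 14.6% lower and 3.1% higher of all genes, and their ranges are over the 12 fits that left out 1 library, 36 h libraries included. Unless stated otherwise, each single gene said to have risen or fallen was called in all 3 fits and in each of those 12. This does not extend to the limma fit with group weights, where 124 of 337 called genes picked for naming kept their call. Fn1, Elf3 and Nat8f1 were among those that lost it (adjusted p = 0.173, 0.121 and 0.114). In bulk samples, fewer cells of a type and less RNA per cell cannot be told apart.

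**Figure D1:**
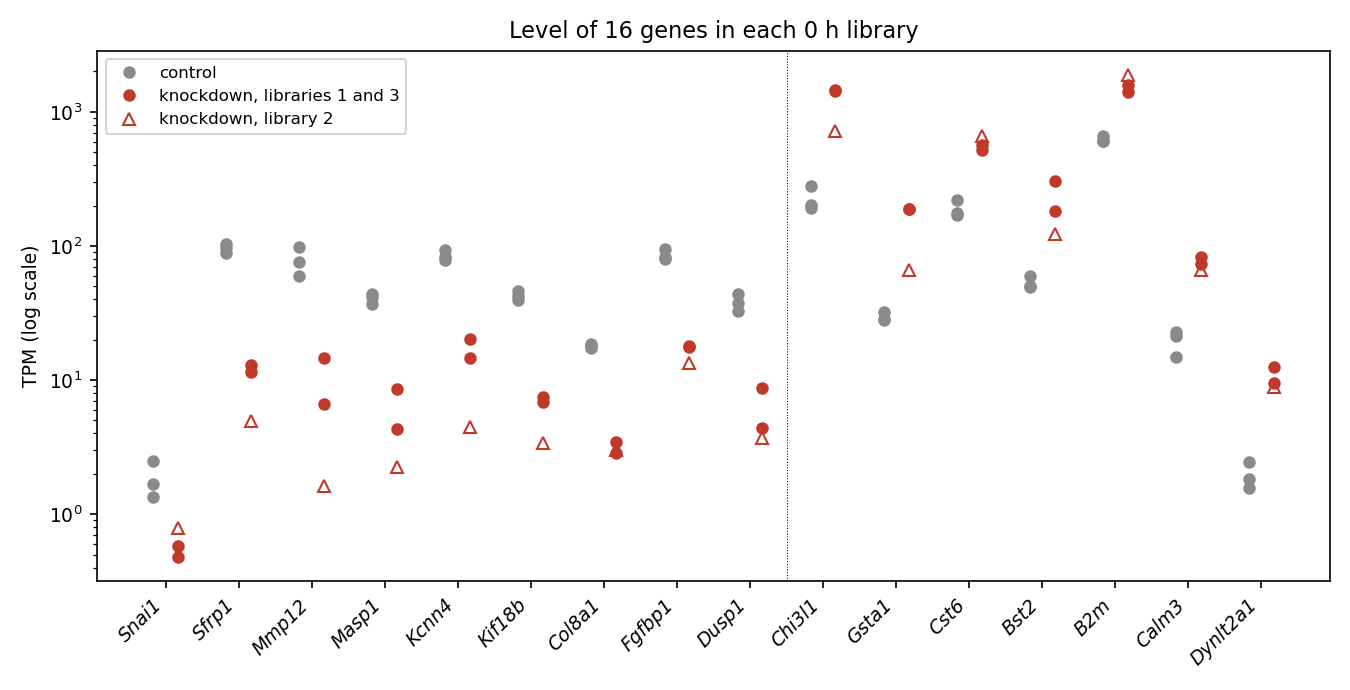
TPM of 16 genes (log scale) in each 0 h library, with 3 control libraries in grey and 3 knockdown libraries in red, library 2 as an open triangle. Left of the dotted line all knockdown points lie below the control points, and right of it all lie above them.

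The targeted gene was low in every library. Snai1 stood at 1.34, 2.51 and 1.69 TPM in the control libraries and at 0.58, 0.79 and 0.48 TPM in the knockdown libraries. The groups did not overlap, and the knockdown mean was 33.4% of the control mean. The log2 difference was -0.80 ± 0.23 (SE) with an adjusted p of 0.0348 in limma, and the exact two-sided permutation test of 3 against 3 gave p = 0.1, the smallest it can give. This call did not hold, because limma lost it after median-of-ratios scaling (log2 difference -0.51, adjusted p = 0.196). Without knockdown library 2 it was made (-0.88, adjusted p = 0.0259). With group weights the adjusted p was 0.34, and the call was kept in 6 of the 12 fits that left out 1 library. It was lost without any 1 control library at 0 h (adjusted p from 0.0596 to 0.123), without knockdown 0 h library 1 (0.0582) and without knockdown 36 h library 1 or 2 (0.05004 and 0.0535). The gene's own upstream stretch is shown because it carries a Snail-type E-box. In RefSeq's promoter table (build GRCm38.p6, which is not the build of the expression files) the 150 bases before the Snai1 start, at chr2:167538045-167538194 on the plus strand, held 1 match to CAGGTG on either strand, in capitals, beginning 126 bases before the start. Of all 32851 promoter windows, 10.6% held this motif within the same 150 bases.
Snai1 upstream: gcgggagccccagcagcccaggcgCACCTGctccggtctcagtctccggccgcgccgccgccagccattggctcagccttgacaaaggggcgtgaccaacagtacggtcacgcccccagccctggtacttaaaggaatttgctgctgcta

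Of 9 tested transcription factors of epithelial-mesenchymal transition, Snai1 among them, 2 were called lower, neither of which held, and 1 was called higher and held. The lower calls numbered 0 to 4 when 1 library was left out. The higher one was Snai3, a paralog of Snai1 with the same type of zinc fingers. It stood at 0.43, 0.35 and 0.68 TPM in control and at 8.15, 1.88 and 4.64 TPM in knockdown, without overlap, a log2 difference of 1.84 ± 0.35 (adjusted p = 0.0078), although with group weights the adjusted p was 0.057. Snai2, the paralog that prevails in basal mammary cells, stood at 130.79, 119.68 and 137.07 TPM in control and at 91.93, 26.93 and 80.1 TPM in knockdown, with an adjusted p of 0.0518 that missed the threshold. Twist1 stood at 11.06 to 12.24 TPM in control and 9.39 to 15.49 TPM in knockdown, and its groups overlapped. Zeb1 was too low to be tested, at no more than 0.55 TPM in any 0 h library. The mesenchymal filament gene Vim was called lower, from 24.6 to 37.2 TPM in control to 10.54 to 16.87 TPM in knockdown (log2 difference -1.09, adjusted p = 0.0108), but not after median-of-ratios scaling (adjusted p = 0.0761).

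Epithelial genes that textbooks list as repressed by Snail proteins were called higher in none or few cases, depending on the fit. Of 20 tested members limma called 0 higher, with 0 at an unadjusted p under 0.05, and 3 lower, of which 1 held, and the median log2 difference was -0.63 against -0.41 over all tested genes. After median-of-ratios scaling 2 were higher and 1 lower, and without knockdown library 2 there were 2 higher and 5 lower. Lower calls numbered 0 without any 1 control library at 0 h, 5 without knockdown library 1 and 9 without knockdown library 3. E-cadherin, Cdh1, stood at 307.63, 288.06 and 292.21 TPM in control and at 135.22, 71.01 and 334.03 TPM in knockdown. Knockdown library 3 lay above the control libraries and libraries 1 and 2 below them, and the adjusted p was 0.15. The claudin Cldn3 was the member whose call held, from 94.94, 85.59 and 101.74 TPM to 58.91, 15.87 and 47.28 TPM (log2 difference -1.38, adjusted p = 0.0297, kept in 9 of the 12 fits without 1 library). The polarity gene Crb3 had 34.25 to 39.31 TPM in control and 33.27 to 52.84 TPM in knockdown, with an adjusted p of 0.288 in the main fit and 0.00348 after median-of-ratios scaling. Of 12 transcription factors that keep cells epithelial 8 were called lower, 5 with calls that held, and 0 higher. The count was 2, 3 and 2 without control library 1, 2 or 3 at 0 h, 5 without knockdown library 1 at 0 h, and 4 or 5 without 1 of 4 libraries at 36 h (control 4 and all 3 of knockdown). Grhl3, a grainyhead-like factor of epidermal barrier formation, fell from 7.02, 7.18 and 7.41 TPM to 1.16, 0.38 and 2.53 TPM (log2 difference -1.90 ± 0.30, adjusted p = 0.00359). Elf3, an epithelial ETS factor, fell from 11.63, 13.18 and 13.52 TPM to 4.85, 1.8 and 5.59 TPM (-1.53 ± 0.32, adjusted p = 0.0118). Among cofactors through which Snail1 represses, the histone methyltransferase gene Suv39h1 fell from 22.49 to 29.78 TPM in control to 3.03 to 8.01 TPM (-2.06 ± 0.28, adjusted p = 0.00201).

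Genes of the mitotic spindle were lower in knockdown. Of 24 kinesins and other spindle motors and midzone proteins, 19 fell, 18 with calls that held, and 0 were called higher. Their median log2 difference was -1.96, against -0.41 over all tested genes, and it was -1.48 after median-of-ratios scaling and -1.80 without knockdown library 2. In the 3 knockdown libraries taken singly the median was -1.93, -2.53 and -1.51 below the control mean. With group weights 14 of the 24 were still called, and between 16 and 21 were called when 1 library was left out.

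Kif18b, a kinesin that shortens microtubule ends, stood at 42.4, 39.69 and 46.08 TPM in control and at 6.9, 3.39 and 7.5 TPM in knockdown. The highest knockdown library lay far below the lowest control library, and the log2 difference was -2.71 ± 0.29 (adjusted p = 0.000938). Kif2c, the centromeric microtubule depolymerase, had 46.11, 43.34 and 43.28 TPM in control and 9.51, 4.67 and 8.22 TPM in knockdown (-2.47 ± 0.25, adjusted p = 0.00086). Prc1, which bundles the midzone microtubules of anaphase, had 141.93, 123.43 and 144.24 TPM and 23.01, 20.25 and 37.65 TPM (-2.34 ± 0.25, adjusted p = 0.000938). Other genes of furrow placement fell as well. Kif20a, the kinesin that carries kinases to the midzone, went from 89.76, 78.59 and 97.95 TPM to 16.27, 2.98 and 22.79 TPM (-2.92 ± 0.52). Racgap1, the GTPase-activating subunit of centralspindlin, had 104.72 to 106.07 TPM in control and 9.71 to 31.99 TPM in knockdown (-2.25 ± 0.36, adjusted p = 0.00373). Ect2, the exchange factor that activates RhoA at the furrow, had 36.52 to 41.01 TPM and 2.81 to 13.97 TPM (-2.40 ± 0.41, adjusted p = 0.00502), and Anln, the ring scaffold anillin, had 100.48 to 108.45 TPM and 15.53 to 39.26 TPM (-2.05 ± 0.33, adjusted p = 0.00395). In none of these cytokinesis genes did a knockdown library reach the control range. Their choice as called genes largely set this, because 2540 of all 2550 called genes showed no overlap.

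Kinetochore and checkpoint genes fell alongside. Of 31 kinetochore and centromere genes 25 fell, 22 with calls that held, with a median log2 difference of -1.56. Of 31 mitotic kinases, cyclins and checkpoint genes 28 fell, 27 with calls that held, with a median of -1.91. Neither list had a member called higher, and with group weights 15 and 20 members were called. The counts stayed between 20 and 28 and between 23 and 31 when 1 library was left out. Cenpe, the kinesin that moves chromosomes to the spindle equator, fell from 12.88, 11.28 and 10.91 TPM to 2.47, 1.1 and 2.45 TPM (-2.11 ± 0.23, adjusted p = 0.000938). Cenpa, the histone H3 variant that marks the centromere, fell less, from 191.96, 199.37 and 192.65 TPM to 68.62, 34.53 and 63.45 TPM (-1.85 ± 0.24, adjusted p = 0.00159). Cyclin A, Ccna2, stood at 152.26, 164.59 and 126.56 TPM in control and at 39.78, 25.7 and 48.55 TPM in knockdown (-1.97 ± 0.23, adjusted p = 0.00111). Cdc25c, the phosphatase that switches on the mitotic kinase, had 25.18, 31.59 and 28.73 TPM and 7.54, 4.47 and 7.36 TPM (-2.01 ± 0.22, adjusted p = 0.000938). Pttg1, the securin that holds sister chromatids together until anaphase, was among the more abundant, at 340.44, 355.64 and 392.4 TPM and 142.79, 94.02 and 100.13 TPM (-1.71 ± 0.20, adjusted p = 0.00111). For these genes knockdown libraries 1 and 3, which lacked the high mitochondrial share of library 2, lay below control as well. This was largely set by the choice of genes, because a call that held was also made without library 2.

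The fall extended to chromosome structure and to S phase, with fewer members called. Of 21 condensin and cohesin genes 12 fell, 8 with calls that held, among them Smc2, a core condensin subunit, from 89.95 to 103.85 TPM to 15.1 to 32.87 TPM (-2.04 ± 0.25, adjusted p = 0.00146). Of 47 genes of replication origins and forks 30 fell, 22 with calls that held, with a median of -1.23. Mcm5, a subunit of the replicative helicase, had 101.42, 90.44 and 104.88 TPM in control and 23.96, 11.52 and 30.48 TPM in knockdown (-2.22 ± 0.31, adjusted p = 0.00208). Top2a, the topoisomerase that untangles sister chromatids, had 154.94, 145.32 and 140.09 TPM and 44.17, 40.72 and 56.49 TPM (-1.63 ± 0.22, adjusted p = 0.00183). In nucleotide synthesis 5 of 29 genes were called lower, near the 14.6% of all genes, with 2 without any 1 control library at 0 h and 8, 9 and 16 without knockdown library 1, 2 or 3. Of 21 E2F, pocket protein and related genes 10 were called lower, 9 with calls that held, and 0 higher. Without control library 1, 2 or 3 at 0 h 2, 3 and 3 were called lower, and with group weights 2. Among them Foxm1, of the G2 and mitosis programme, fell from 11.16 to 17.77 TPM to 1.99 to 5.08 TPM (-1.86 ± 0.31, adjusted p = 0.00417, and 0.089 with group weights). Mybl2, the partner of Foxm1, fell from 22.4 ± 2.29 TPM (SD, n = 3) to 7.49 ± 4.23 TPM (-1.58 ± 0.31, adjusted p = 0.00879). Without control library 1, 2 or 3 at 0 h the replication list had 14, 18 and 14 called members and the condensin and cohesin list 7 in each case.

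Promoters of mitotic genes often carry a CHR element (TTTGAA) near the start, downstream of a CCAAT box, through which cell cycle complexes act. The upstream 100 bases of 3 genes that fell are shown because they hold both letter strings on either strand, in capitals; they were picked for holding them after several mitotic promoters had been searched. Kif11, the motor that separates the spindle poles, fell from 36.46, 40.0 and 36.68 TPM to 6.18, 5.58 and 12.98 TPM (-2.15 ± 0.34, adjusted p = 0.00335). Ckap2l, a spindle protein, fell from 57.24, 51.72 and 64.15 TPM to 9.57, 3.25 and 12.55 TPM (-2.79 ± 0.36, adjusted p = 0.00173). The stretches are from RefSeq (GRCm38.p6), at chr19:37376282-37376381 on the plus strand for Kif11, at chr11:99024190-99024289 on the minus strand for Top2a and at chr2:129297213-129297312 on the minus strand for Ckap2l. The match to TTTGAA nearest the start began 19 bases before it in Kif11, 23 bases before it in Top2a and 30 bases before it in Ckap2l. In Ckap2l matches to CCAAT lay both upstream and downstream of that match, and the downstream one began 14 bases before the start. Of all 32851 windows, 1.06% held both strings within 100 bases of the start. A match is a description of letters, not of binding. Because only 9802 of the 14426 tested genes (67.9%) had a window by symbol, under the 80% needed, no share of motifs among called genes was computed.
Kif11 upstream: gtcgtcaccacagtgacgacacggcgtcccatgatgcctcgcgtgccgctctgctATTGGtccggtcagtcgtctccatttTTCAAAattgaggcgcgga
Top2a upstream: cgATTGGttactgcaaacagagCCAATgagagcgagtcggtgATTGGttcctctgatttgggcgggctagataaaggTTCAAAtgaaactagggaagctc
Ckap2l upstream: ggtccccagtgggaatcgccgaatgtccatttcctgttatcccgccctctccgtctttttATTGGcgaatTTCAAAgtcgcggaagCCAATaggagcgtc

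**Figure D2:**
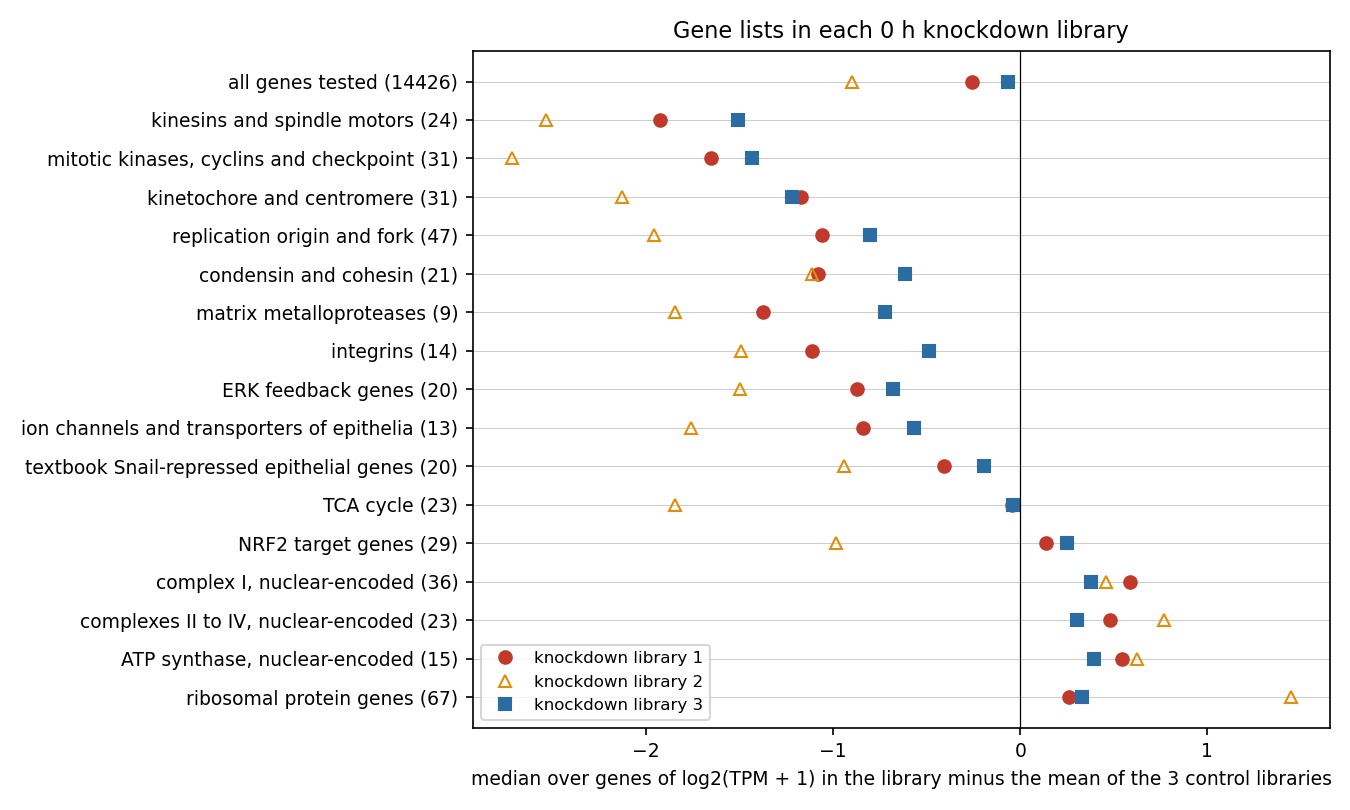
Median, over the tested genes of each list (number in brackets), of the log2(TPM + 1) value in each knockdown library minus the mean of the 3 control libraries at 0 h. Over all genes library 2 sits at -0.90 and libraries 1 and 3 at -0.26 and -0.06, and the mitotic lists lie below these values in each library.

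Extracellular proteases gave several large falls. Of 9 tested matrix metalloproteases 7 were called lower, 4 with calls that held, and 0 higher. Mmp3, stromelysin, stood at 25.71, 19.51 and 53.43 TPM in control and at 1.56, 0.0 and 3.31 TPM in knockdown (log2 difference -3.80 ± 0.51, adjusted p = 0.00183). Mmp12, which cleaves elastin, stood at 76.3, 59.35 and 98.91 TPM and at 6.66, 1.61 and 14.54 TPM (-3.52 ± 0.52, adjusted p = 0.00263). Mmp14, a membrane-bound collagenase used by invading epithelial cells, was the most abundant of these and fell from 159.19, 144.77 and 185.34 TPM to 52.5, 19.37 and 63.98 TPM (-1.98 ± 0.37, adjusted p = 0.00733). In the plasminogen system 9 of 19 genes were called lower, 8 with calls that held. Plau, the urokinase that generates plasmin at the cell surface, fell from 12.21, 13.54 and 11.18 TPM to 2.89, 1.9 and 5.18 TPM (-1.69 ± 0.26, adjusted p = 0.00335). An inhibitor fell too: Timp3 had 412.38 to 544.6 TPM in control and 112.63 to 212.65 TPM in knockdown (-1.63 ± 0.26, adjusted p = 0.00345). Without control library 1, 2 or 3 at 0 h, 3, 4 and 4 metalloproteases and 4, 5 and 4 plasminogen system genes were called, and without the 36 h control library 4 or knockdown library 3 4 metalloproteases were.

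Metalloprotease promoters commonly carry an AP-1 site close to the start, the binding letters of Fos and Jun proteins. Both stretches below, of 100 bases, are shown because they hold such a site, and no other metalloprotease is shown. Each holds 1 match to TGANTCA, in capitals, beginning 46 bases before the start of Mmp3 (chr9:7445722-7445821, plus strand) and 44 bases before a start of Mmp12 (chr9:7347274-7347373, plus strand). Of all 32851 windows, 2.73% held the motif within 100 bases.
Mmp3 upstream: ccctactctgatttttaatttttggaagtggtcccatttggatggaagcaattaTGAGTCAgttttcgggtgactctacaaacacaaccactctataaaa
Mmp12 upstream: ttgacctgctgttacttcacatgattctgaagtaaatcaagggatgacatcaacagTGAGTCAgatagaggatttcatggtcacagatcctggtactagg

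Both founding AP-1 genes fell. Fos stood at 58.92, 56.88 and 72.87 TPM in control and at 15.34, 6.09 and 13.32 TPM in knockdown (-2.42 ± 0.34, adjusted p = 0.00213). Jun stood at 78.69, 79.16 and 113.49 TPM and at 17.58, 8.46 and 25.9 TPM (-2.42 ± 0.39, adjusted p = 0.00351), and with group weights its adjusted p was 0.0634. Of 14 AP-1 and early growth response genes 5 were called lower, all with calls that held, and 0 higher; 3 were called without any 1 control library at 0 h, 8 without knockdown library 3 and 1 with group weights. Feedback genes of the ERK pathway, which are switched on when EGF signalling is active, were also lower, with 11 of 20 called and 8 holding. Of them 6, 7 and 8 were called without control library 1, 2 or 3 at 0 h, and 2 with group weights. Dusp1, a phosphatase that ends MAP kinase signals, fell from 32.7, 37.47 and 43.63 TPM to 8.77, 3.71 and 4.42 TPM (-2.62 ± 0.28, adjusted p = 0.000938). Dusp6, the ERK phosphatase, fell from 168.66 to 188.13 TPM to 21.24 to 73.14 TPM (-1.89 ± 0.38, adjusted p = 0.0102). Among ligands, Tgfa, which activates the EGF receptor, fell from 28.53, 25.23 and 22.27 TPM to 4.69, 3.37 and 8.57 TPM (-2.08 ± 0.30, adjusted p = 0.00236). Fgfbp1, which releases FGFs from the matrix, fell from 83.31, 80.07 and 95.35 TPM to 17.71, 13.32 and 18.03 TPM (-2.34 ± 0.18, adjusted p = 0.000324) and was also called in the fit to the 6 libraries alone (adjusted p = 0.0461).

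Receptors for the matrix fell in part. Of 14 tested integrins 7 were called lower, 5 with calls that held, and 0 higher. The count was 2 without any 1 control library at 0 h, 4 without knockdown library 1 at 0 h, and 3 or 4 without 1 of 4 libraries at 36 h (control 4 and all 3 of knockdown). Itgb3, the beta chain of the vitronectin receptor, stood at 20.02, 18.45 and 10.76 TPM in control and at 1.45, 0.55 and 3.27 TPM in knockdown (-2.74 ± 0.42, adjusted p = 0.00316). Itga8, an alpha chain that pairs with beta 1, stood at 15.32, 15.31 and 17.28 TPM and at 2.05, 0.91 and 4.45 TPM (-2.42 ± 0.42, adjusted p = 0.00516). With group weights 0 integrins were called. Of the adaptors that link integrins to actin 13 of 33 were called lower, 8 holding, including Pxn (paxillin), from 36.8 to 40.53 TPM to 6.04 to 14.25 TPM (-2.09 ± 0.34, adjusted p = 0.00396), and Nedd9, from 18.69 to 20.67 TPM to 3.87 to 8.11 TPM (-1.72 ± 0.26, adjusted p = 0.00276). Adaptors called numbered 3, 5 and 6 without control library 1, 2 or 3 at 0 h and 21 without knockdown library 3. The actin lists differed in their counts, with 2 of 25 nucleation and branching genes and 2 of 20 myosins called lower (ranges 0 to 10 and 0 to 7) but 12 of 35 bundling, severing and monomer-binding genes, 9 of them holding. The last count was 4, 5 and 5 without control library 1, 2 or 3 and 20 without knockdown library 3. Among these the tropomyosin genes Tpm1 and Tpm4, whose proteins coat actin filaments, fell by 1.46 and 2.15 on the log2 scale (adjusted p = 0.00604 and 0.0101). Desmosome and hemidesmosome genes were called lower in 10 of 19, but 3 held. Their count was 0, 0 and 1 without control library 1, 2 or 3 at 0 h, and 5 without knockdown library 1 or 2 at 0 h, control library 4 at 36 h or knockdown library 1 or 2 at 36 h.

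Matrix proteins were lower in part. Of 21 collagen genes 8 were called lower, 6 with calls that held, and 1 higher, with a median log2 difference of -0.76. Without any 1 control library at 0 h 4 were called lower, and with group weights 2. Relative to the median of all genes the list lay at -0.55, 0.14 and -0.26 in knockdown libraries 1, 2 and 3. Col8a1, a short-chain network collagen, showed little spread in either group, with 17.84, 17.44 and 18.51 TPM in control and 3.47, 2.99 and 2.85 TPM in knockdown (-2.21 ± 0.20, adjusted p = 0.000475), and was called in the fit to the 6 libraries alone (adjusted p = 0.0461). Col6a1, a chain of beaded-filament collagen, was the more abundant, at 301.01, 288.23 and 282.74 TPM and 55.36, 27.54 and 100.3 TPM (-2.42 ± 0.41, adjusted p = 0.00453). The collagen that rose was Col20a1, at 0.39, 1.51 and 0.72 TPM in control and 2.97, 14.32 and 4.24 TPM in knockdown (1.91 ± 0.42, adjusted p = 0.0139, called in 10 of the 12 fits without 1 library). Loxl4, a lysyl oxidase that crosslinks collagen, fell from 21.96 to 26.54 TPM to 0.48 to 8.17 TPM (-2.73 ± 0.56, adjusted p = 0.0109). Fibronectin, Fn1, fell from 142.06, 124.4 and 99.49 TPM to 27.81, 33.82 and 39.28 TPM (-1.83 ± 0.36, adjusted p = 0.00864), and for this gene knockdown library 2 was not the lowest.

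Secreted regulators and channels of the epithelial surface gave further large falls. Sfrp1, which binds and inhibits Wnt ligands, stood at 96.21, 89.22 and 104.11 TPM in control and at 11.49, 4.98 and 12.88 TPM in knockdown (-3.27 ± 0.30, adjusted p = 0.000475). Of the 22 tested Wnt ligands, receptors and modulators 4 were called lower and 1 higher, near the shares of all genes, and 2 to 10 were called lower when 1 library was left out (10 without knockdown library 3, 2 without control library 1). The lower ones included 2 further secreted Wnt inhibitors, Notum, which fell by 1.58 on the log2 scale (adjusted p = 0.00733), and Wif1, with a log2 difference of -1.24 (adjusted p = 0.0105, called in 11 of the 12 fits without 1 library). Of 13 ion channels and transporters of epithelia 6 were called lower, all with calls that held, and 1 higher. The lower calls numbered 4, 5 and 3 without control library 1, 2 or 3 at 0 h and 10 without knockdown library 3. The higher call was kept in 2 of the 12 fits without 1 library. Kcnn4, a calcium-activated potassium channel, had 78.66, 82.44 and 92.59 TPM and 14.55, 4.45 and 20.15 TPM (-2.81 ± 0.42, adjusted p = 0.00284). Ano1, a calcium-activated chloride channel, had 34.64, 36.23 and 37.98 TPM and 5.02, 2.25 and 10.88 TPM (-2.60 ± 0.44, adjusted p = 0.00457), and with group weights its adjusted p was 0.0572. Both channels are opened by the same signal, a rise in cytosolic calcium. Trpv6, a calcium entry channel, fell from 5.58 to 6.71 TPM to 1.09 to 3.11 TPM (-1.33 ± 0.26, adjusted p = 0.00864).

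Complement and acute-phase genes split, with 8 of 16 called lower (7 holding) and 2 higher (both holding), and with 5 lower without control library 2 or 3 at 0 h. Masp1, a protease of the lectin pathway, fell from 37.06, 44.0 and 41.57 TPM to 4.32, 2.24 and 8.54 TPM (-2.93 ± 0.39, adjusted p = 0.00177). Orm1, the acute-phase protein orosomucoid, fell from 14.89, 12.11 and 17.28 TPM to 2.19, 2.4 and 2.6 TPM (-2.20 ± 0.30, adjusted p = 0.00188). Clu, the chaperone clusterin, fell from 38.4 to 43.27 TPM to 1.93 to 12.37 TPM (-2.42 ± 0.46, adjusted p = 0.00776). Against these, Chi3l1, a chitinase-like lectin secreted in inflammation, rose. It stood at 201.06, 193.12 and 278.07 TPM in control and at 1453.46, 723.0 and 1426.83 TPM in knockdown (2.37 ± 0.26, adjusted p = 0.00095, and 0.0137 with group weights). Cd59a, which shields cells from complement lysis, rose from 2.67 to 3.29 TPM to 6.12 to 7.13 TPM (0.98 ± 0.19, adjusted p = 0.00764). Among chemokines and cytokines, 4 of 23 were called lower and 5 higher, against 14.6% and 3.1% of all genes. The higher calls numbered 0, 1 and 2 without control library 1, 2 or 3 at 0 h, 3 or 4 without any other library, and 0 with group weights. Without control library 2 or 3 at 0 h 2 were called lower. Cx3cl1, a membrane-tethered chemokine, fell from 178.33, 180.82 and 212.74 TPM to 48.18, 10.91 and 59.56 TPM (-2.54 ± 0.48, adjusted p = 0.00775). Ccl5, a chemokine for T cells and monocytes, rose from 2.37, 4.12 and 5.46 TPM to 16.65, 29.26 and 24.44 TPM (2.31 ± 0.51, adjusted p = 0.0143, called in 11 of the 12 fits without 1 library), with an adjusted p of 0.259 under group weights.

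Some single genes of detoxification and glutathione metabolism rose, while their lists moved both ways. Of 37 glutathione transferases and aldehyde enzymes 3 were called higher and 3 lower, with a median of -0.37, and 9 were higher after median-of-ratios scaling or without knockdown library 2. The higher calls numbered 2, 1 and 2 without control library 1, 2 or 3 at 0 h. Gsta1, a glutathione transferase, stood at 28.42, 27.95 and 32.42 TPM in control and at 188.3, 65.71 and 187.8 TPM in knockdown (2.13 ± 0.35, adjusted p = 0.00416). Gsta5, of the alpha class like Gsta1, rose to 3.71 to 10.52 TPM from 0.47 to 1.12 TPM. Gstp2, of the pi class, rose to 3.47 to 11.67 TPM from 0.0 to 1.88 TPM and was called in 11 of the 12 fits without 1 library. Near-identical copies within each class, Gsta1 included, share reads, and how the counting divided them is not given in the sources used here. Gclm, the modifier subunit of glutathione synthesis, rose from 107.38, 101.86 and 93.62 TPM to 282.85, 156.06 and 226.36 TPM (1.09 ± 0.21, adjusted p = 0.00845). Gpx2, an epithelial glutathione peroxidase, rose from 766.72, 790.99 and 828.95 TPM to 1465.94, 1135.43 and 1404.95 TPM (0.74 ± 0.14, adjusted p = 0.00764). Slc7a11, which imports cystine for glutathione, rose from 0.4 to 1.13 TPM to 1.81 to 6.27 TPM (1.57 ± 0.32, adjusted p = 0.0108). Gsta1, Gclm, Gpx2 and Slc7a11 belong to a list of 29 targets of the oxidative stress factor NRF2, of which 5 were called higher and 1 lower, against 3.1% and 14.6% of all genes. The higher calls numbered 10 after median-of-ratios scaling or without knockdown library 2, and the lower calls 7 without knockdown library 3. The list's median log2 difference was -0.37, near that of all genes, 0.14 after median-of-ratios scaling and 0.26 without knockdown library 2. Nqo1, a defining NRF2 target, stood at 39.15 to 50.25 TPM in control and 14.43 to 46.1 TPM in knockdown, with overlap. Cst6, a cystatin that inhibits lysosomal proteases, rose from 177.4, 219.45 and 168.74 TPM to 562.69, 664.86 and 522.38 TPM (1.63 ± 0.17, adjusted p = 0.000938, and 0.0178 with group weights). Calm3, 1 of 3 genes for calmodulin, rose from 21.24, 22.73 and 14.76 TPM to 82.63, 66.66 and 72.96 TPM (1.88 ± 0.21, adjusted p = 0.00101).

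Single genes of antigen presentation and interferon response rose. Of 18 genes of MHC class I and peptide loading 1 was called higher and 2 lower, all holding. With 1 library left out 1 stayed higher, and the lower calls numbered 1 to 9, with 9 without knockdown library 3. The higher one, B2m, the light chain of MHC class I, stood at 608.71, 656.46 and 600.75 TPM in control and at 1591.51, 1886.09 and 1394.71 TPM in knockdown (1.37 ± 0.18, adjusted p = 0.00177). The heavy chain H2-K1 was at 193.64 to 248.46 TPM and 119.47 to 205.86 TPM (adjusted p = 0.108). Bst2, the tetherin that holds virus particles at the membrane, rose from 49.36, 50.59 and 59.9 TPM to 181.98, 123.26 and 305.98 TPM (1.82 ± 0.30, adjusted p = 0.00411). The 2 lower genes of MHC class I and peptide loading were Tapbpl, a peptide editor, which fell by 1.06 on the log2 scale (adjusted p = 0.00828), and Cd1d1, a lipid-presenting relative, whose log2 difference of -0.98 was called in 3 of the 12 fits without 1 library. Of 43 interferon effectors 3 were called higher and 1 lower, against 3.1% and 14.6% of all genes, and the median was 0.40. Higher calls numbered 8 after median-of-ratios scaling and 7 without knockdown library 1, and without knockdown library 3 there were 1 higher and 10 lower. Without control library 1 or 2 at 0 h, or any 1 library at 36 h, 1 was called higher. Their median by knockdown library was -0.18, -0.05 and 0.84, and relative to all genes it was 0.08, 0.84 and 0.90, so library 1 was the lowest on both scales. Ifit1 was at 1.76, 0.58 and 10.76 TPM in control and at 4.11, 3.01 and 33.84 TPM in knockdown, with library 3 highest in both groups and an adjusted p of 0.299. In the immunoproteasome list 3 of 5 genes were called higher, all 3 holding, but 0 were called without any 1 of the control libraries at 0 h, 1 without control library 4 or knockdown library 1 or 2 at 36 h, and 5 without knockdown library 2 at 0 h.

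**Figure D3:**
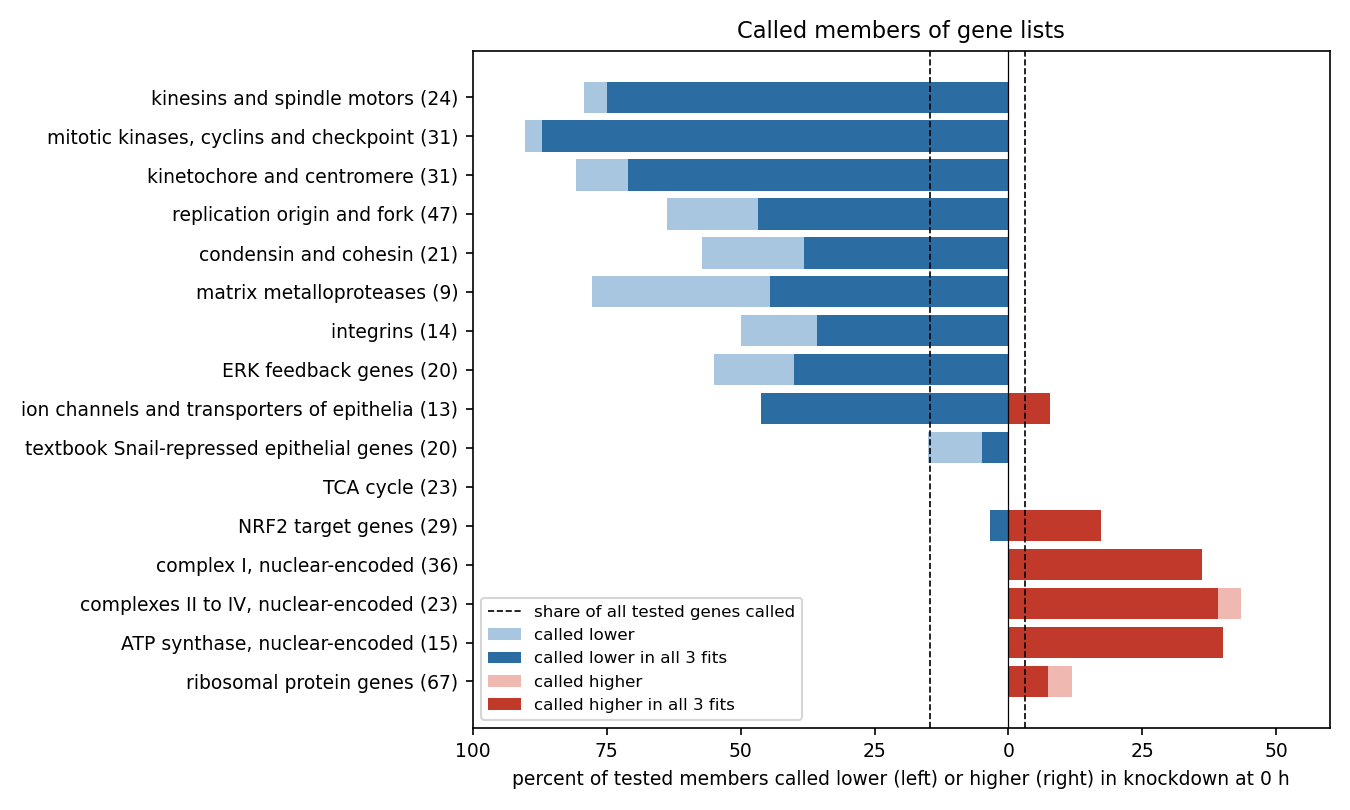
Percent of tested members (number in brackets) called lower (left) or higher (right) in knockdown at 0 h, with the part called in all 3 fits in the darker colour. The dashed lines mark the 14.6% and 3.1% of all tested genes called, and the mitotic lists reach far past the left line.

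Nuclear genes of the respiratory chain were called higher or not at all. Of 36 complex I genes 13 rose, of 23 genes of complexes II to IV 10 and of 15 ATP synthase genes 6, with 13, 9 and 6 calls that held and 0 called lower. The median log2 differences were 0.43, 0.55 and 0.43, and they were 0.48, 0.39 and 0.44 without knockdown library 2. In the complex I list the median was above control in each library, by 0.59, 0.46 and 0.38. Ndufs4, a complex I assembly and activity subunit, stood at 135.41, 149.5 and 125.73 TPM in control and at 290.06, 297.99 and 265.13 TPM in knockdown (1.05 ± 0.17, adjusted p = 0.00416). Uqcrh, the hinge protein of complex III, stood at 615.42, 660.41 and 581.42 TPM and at 1014.7, 1180.68 and 996.94 TPM (0.78 ± 0.15, adjusted p = 0.00733). Atp5me, a membrane subunit of ATP synthase, stood at 552.16, 643.5 and 543.83 TPM and at 1009.99, 1498.37 and 948.5 TPM (0.96 ± 0.19, adjusted p = 0.00856). The changes were small, and the counts were not stable: without control library 1 at 0 h 2, 1 and 1 members were called, without library 2 8, 4 and 3, without library 3 6, 4 and 1, and without knockdown library 2 24, 14 and 9. For complexes II to IV 6 were called without control library 4 or knockdown library 1 at 36 h. With group weights 1 of the 74 was called, Atp5f1e.

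The TCA cycle feeds the same chain. Of its 23 tested genes limma called 0 in either direction, with 5 lower and 0 higher at an unadjusted p under 0.05. Against 30.7% of all tested genes, 5 of the 23 had all knockdown libraries below all control libraries. The median was -0.60, which became -0.08 after median-of-ratios scaling and 0.01 without knockdown library 2. By library it was -0.04, -1.85 and -0.04, so library 2 alone was low. Citrate synthase, Cs, had 154.88, 149.07 and 160.97 TPM in control and 122.96, 42.45 and 130.92 TPM in knockdown (adjusted p = 0.121). The succinate dehydrogenase genes Sdha and Sdhb were counted in both lists. Cytosolic ribosomal protein genes had 8 of 67 called higher, 5 holding, and their median by library was 0.26, 1.45 and 0.33, highest in library 2. The count was 0, 2 and 0 without control library 1, 2 or 3 at 0 h, 22, 13 and 32 without knockdown library 1, 2 or 3 at 0 h, and 3 to 5 without any 1 library at 36 h.

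Gene length moved with these results. Genes of up to 500 bases had a median log2 difference of 0.59, those of 500 to 1000 bases 0.13, and those of 1000 to 2000, 2000 to 4000 and over 4000 bases -0.33, -0.57 and -0.55. Without knockdown library 2 the same medians were 0.34, 0.17, -0.03, -0.25 and -0.35. The median length was 747.5 bases for complex I genes, 659 for complexes II to IV, 838 for ATP synthase and 833 for ribosomal proteins, against 2544 for the TCA cycle and 3384 for the spindle motors. The respiratory lists, with medians of 0.43, 0.55 and 0.43, had median lengths in the range where the median of all genes was above 0. Of 1057 genes of up to 500 bases 88 were called higher and 23 lower. Of 1446 genes of 500 to 1000 bases 154 were called higher and 75 lower. The spindle motors, with a median of -1.96, lay well below the -0.57 of genes of 2000 to 4000 bases. The part of length in these differences was not tested.

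**Figure D4:**
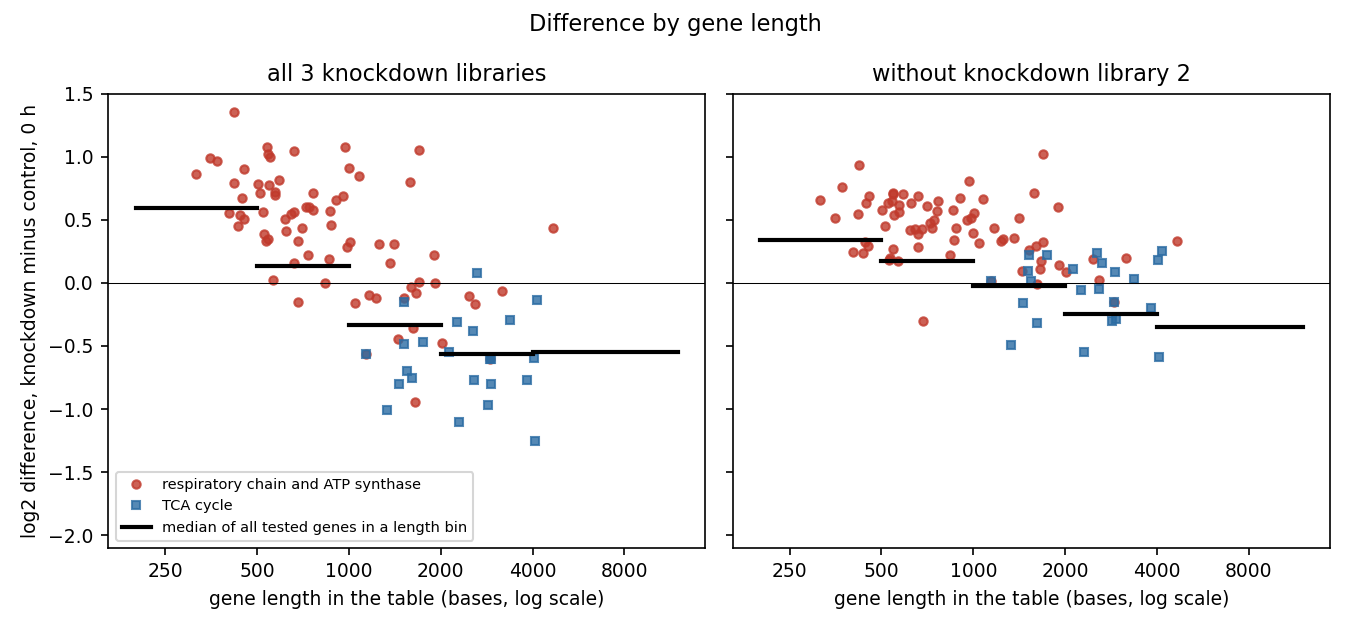
Log2 difference between knockdown and control at 0 h against gene length (log scale) for respiratory chain and ATP synthase genes (circles) and TCA cycle genes (squares), with all 3 knockdown libraries (left) and without library 2 (right). Black bars mark the median of all tested genes in 5 length bins, from 0.59 for the shortest to -0.55 for the longest on the left and from 0.34 to -0.35 on the right.

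Histone genes moved both ways. H1f2, a linker histone of S phase, fell from 71.03, 81.13 and 59.79 TPM to 19.11, 11.88 and 20.53 TPM (-2.004 ± 0.25, adjusted p = 0.00146), while H2ac18, a replication-dependent H2A gene, rose from 31.92, 38.2 and 20.05 TPM to 100.62, 68.91 and 83.83 TPM (1.49 ± 0.33, adjusted p = 0.0144, called in 11 of the 12 fits without 1 library). Of 25 tested histone genes 5 were called lower and 3 higher, and all 8 calls held. The lower ones were the linker histones H1f2 and H1f0 and the variants H2ax, H2az1 and H3f3b, and the higher ones H2ac18, H2ac19 and H4c8, which code for core histones; the higher calls numbered 2, 1 and 1 without control library 1, 2 or 3 at 0 h, and the last 2 genes were called in 10 of the 12 fits without 1 library. H2ac18 and H2ac19 are near-identical copies, and their separate levels are uncertain. With group weights the 5 lower calls were kept and the 3 higher ones were not. Other genes among the 20 largest rises included Dynlt2a1, a dynein light chain, from 1.58 to 2.46 TPM to 8.89 to 12.6 TPM (1.94 ± 0.21, adjusted p = 0.00095), and Nat8f1, an acetyltransferase, from 2.98 to 3.34 TPM to 15.01 to 21.93 TPM (2.26 ± 0.34, adjusted p = 0.00276).

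At 36 h, in separate knockdown and control libraries, most of these genes lay on the same side. The sign of the difference was the same at 36 h for 2458 of the 2550 called genes (96.4%) and for 1657 of the 1693 whose calls held (97.9%). Genes that fell with calls that held had a median of -1.46 at 0 h and -0.70 at 36 h, and those that rose 0.98 and 0.60; they were chosen at 0 h, so the larger value there is in part set by the choice. At 36 h 149 of the lower and 78 of the higher genes were also called. Of all 14426 tested genes, limma called 236 lower and 129 higher at 36 h. The share of all tested genes with the same sign at both times was not computed. By limma 0 genes were called for a difference between the effects at the 2 times (0.0%), with 766 genes at an unadjusted p under 0.05, so a smaller effect at 36 h was not shown for any single gene. Snai1 itself differed by -0.80 at 0 h and by -1.55 at 36 h (adjusted p = 0.0106). Sfrp1 was at -3.27 and -2.79, Col8a1 at -2.21 and -2.11 and Itgb3 at -2.74 and -2.24. Chi3l1 was at 2.37 and 3.42, and Gsta1 at 2.13 and 2.44. Spindle motors had a median of -1.96 at 0 h and -0.92 at 36 h, with 5 of 24 called lower at 36 h, and the complex I genes had 0.43 and 0.26.

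**Figure D5:**
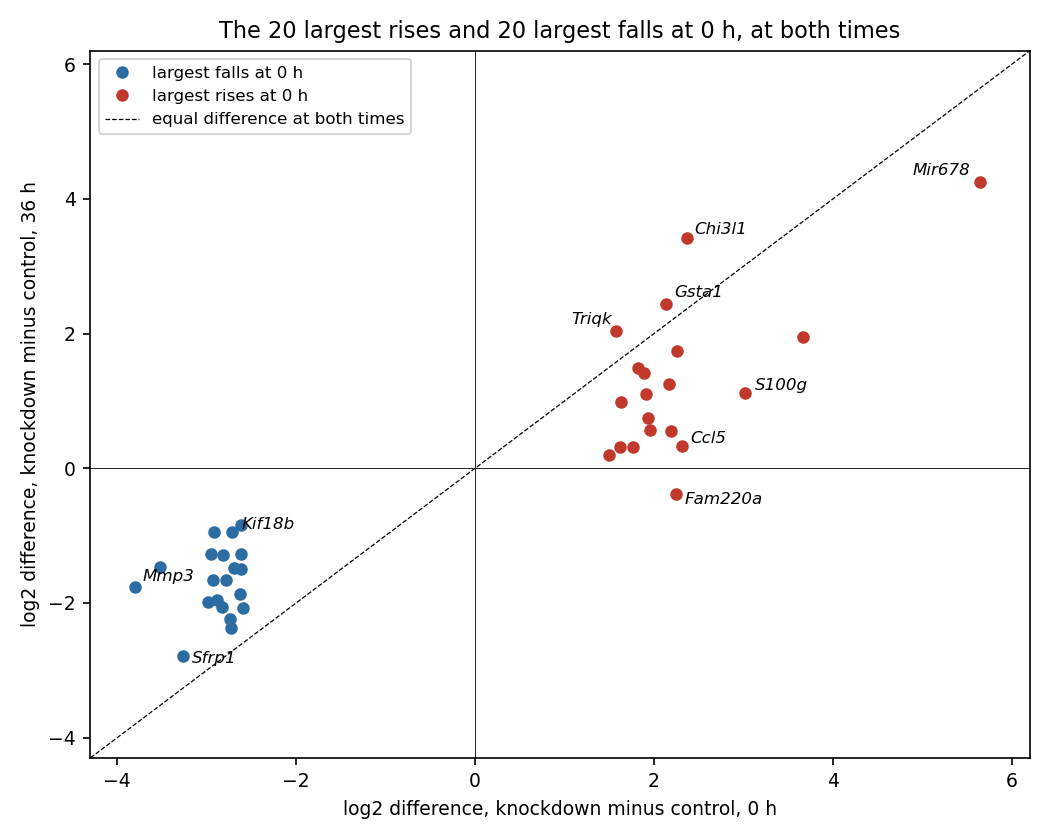
Log2 difference between knockdown and control at 0 h (x axis) and at 36 h (y axis) for the 20 largest falls (blue) and the 20 largest rises (red) at 0 h, with a dashed line where both are equal. Chi3l1 and Gsta1 lie above the line, and most falls are smaller at 36 h than at 0 h.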

How the data were processed

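The authors deposited one table of TPM for 12 libraries, with the gene length in bases. Per the submitters' processing notes, reads were handled with HISAT2 2.2.1, cutadapt 1.9.1, DESeq2, HTSeq and FastQC on build GRCm39, in roles not given, and which program made the TPM is not given in the sources used here. TPM keep no read totals, so no count test was possible and precision is judged from the spread between libraries. Values were taken as log2(TPM + 1), and genes reaching 1 TPM in at least 3 libraries were tested with limma 3.58.1 (R 4.3.3) in one fit of 4 groups with Benjamini-Hochberg adjustment. The procedure was tested on simulated data. These had the same spread in every group and no shift between libraries, so they could not show how the fit behaves with the unequal spread found here. Figures and summaries used Python 3.11.15. The genes named come from the 20 largest falls and rises among calls held in all 3 fits, with no overlap and at least 5 TPM in the higher group. Others come from up to 5 calls that held per list and direction, with the lowest adjusted p and no condition on level or overlap. Snai1 and cell type markers were added. Outside this rule, chosen after their values were seen, are Crb3, Cs, H2-K1, Ifit1, Kif11, Nqo1, Sdha, Sdhb, Snai2, Twist1, Vim and Zeb1. The members and lists were chosen with earlier results of these data known. Alternatives changed the scaling, the pseudocount, the filter, the weights, the replicate block and the libraries; group weights and the fit to 5 libraries were added after seeing the data.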

Additional observations from a re-analysis of the deposited data

How the results depend on the processing

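No called gene named by the rule changed direction under the alternatives run. This was largely fixed in advance, because the rule asked most of them for the same direction in 3 of the fits. Some alternatives, such as group weights, also left the group means at 0 h unchanged. Of 337 such genes, 5 kept their call with only the 6 libraries at 0 h, 124 with group weights and 179 without control 0 h library 1. Uncalled Krt14 lay lower in knockdown with all libraries and higher without knockdown library 2 or after median-of-ratios scaling. The counts of called genes moved. Genes called lower in knockdown at 0 h, 2103, numbered 1015 with no filter, 9 with only the 6 libraries at 0 h, 1364 with 5 of them (library 2 left out), 3599 with array weights and 341 with group weights. Genes called higher, 447, numbered 243, 7, 512, 1085 and 24 in the same order, 1259 after median-of-ratios scaling and 1094 after quantile normalization. With knockdown library 2 left out they numbered 1575 after median-of-ratios scaling and 1051 without mitochondrial and ribosomal genes, and with libraries 2 and 3 left out 753. The range when 1 library was left out was 634 (control 1) to 5014 (knockdown 3) lower and 113 (control 1) to 973 (knockdown 2) higher. For the knockdown effect at 36 h minus that at 0 h, 0 genes became 1 with no filter, median-of-ratios scaling, quantile normalization, the replicate block or group weights, 3 without mitochondrial and ribosomal genes or without knockdown libraries 2 and 3, 90 with array weights, 6 and 11 with library 2 left out and median-of-ratios scaling or no mitochondrial and ribosomal genes, and 0 to 11 with 1 library left out. The replicate block gave 835 lower and 176 higher, and 817 lower and 586 higher with median-of-ratios scaling; libraries of the same number deviated from their group means with correlations of -0.15, 0.13 and 0.10, so the numbers were not taken to pair samples. Fewer samples entered some of these fits; otherwise the cause was not tested. Depth is unknown.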

Other observations

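Genes of cholesterol synthesis were lower in knockdown at 0 h in part. Of 25 tested members 11 were called lower by limma, 5 with calls that held in all 3 fits, and 0 higher, with a median log2 difference of -0.92 against -0.41 over all tested genes. Sqle, the squalene epoxidase, stood at 70.76, 65.31 and 77.87 TPM in control and at 24.78, 8.89 and 30.87 TPM in knockdown (-1.84 ± 0.36, adjusted p = 0.00826). The groups did not overlap. Without control library 1, 2 or 3 at 0 h, 4, 4 and 5 members were called lower, and without knockdown library 3 17 were.

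Genes of the cornified envelope moved both ways, with 7 of 22 called lower (5 holding) and 3 higher (all holding). Sprr1b, a small proline-rich envelope protein, stood at 38.18, 36.87 and 33.05 TPM in control and at 9.77, 7.99 and 6.32 TPM in knockdown (-2.05 ± 0.20, adjusted p = 0.000624). Dmkn, a protein secreted by differentiating epidermis, stood at 183.73, 172.15 and 198.01 TPM and at 65.83, 50.52 and 69.12 TPM (-1.57 ± 0.19, adjusted p = 0.00127). The higher members were Cst6, Klk6 and Cstb, and 1 member was called higher without any 1 of the control libraries at 0 h or without knockdown library 1 at either time.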
